A study of Homo sapiens with 16 samples.

Results

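IFITM1, IFITM2 and IFITM3 are the interferon-induced transmembrane proteins that block the entry of enveloped viruses into human cells. Their transcripts were followed across 16 RNA libraries of HEK293, a human embryonic kidney line grown in Free-style medium. The 3 genes were taken by name, as the rows of each count file whose gene column held one of these symbols. They are 3 of the 20802 gene targets in the files, and each of them was among the 12704 genes that passed a filter on low counts. IFITM2 passed it through its ligand-treated libraries, since it had 3 to 6 reads in each untreated library, and its tests against untreated cells should be read with that in mind. Cells carried receptors that the labels call optimized or wild-type receptors, in a series on the geometry of paired Janus kinases in signalling by type I and type III interferons. What was changed in the optimized receptors, how they were introduced and whether the cells kept their own receptors is not stated in the sources used here. Cells of either genotype were given a ligand at 100 nM, which was IFNw (the type I interferon omega), H11, which the labels describe as a high-affinity form of interferon lambda 3, or IFNL3 (the type III interferon lambda 3), or were left untreated. The labels state 15 min of exposure and, separately, 24 hr, with nothing on how these relate, and no mock-treated group was analysed here. Each of the 8 groups had 2 libraries, described as biological replicates with nothing on separate cultures, so the p-values measure the spread between those libraries. The untreated optimized pair stood apart, with a chi-square per degree of freedom of 26.1 between its libraries, against 6.58 to 9.86 in the other 7 groups, and a smallest total of 5331203 reads in its replicate 2.

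IFITM proteins sit in the membranes that enveloped viruses must fuse with, and they hinder the opening of the fusion pore. IFITM1 resides mostly at the plasma membrane, whereas IFITM2 and IFITM3 carry an extra stretch at their start with a tyrosine-based sorting signal and gather in endosomes and lysosomes. Type I and type III interferons bind different receptors, but both act through a transcription factor complex that includes IRF9 and binds the interferon-stimulated response element (ISRE) in the promoters of their target genes.

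The 3 genes lie side by side on chromosome 11 and are close copies of each other, which bears on how their reads can be told apart. RefSeq's annotation of GRCh38 places IFITM2 at chr11:307816-309395 and IFITM1 at chr11:314040-315272, both on the plus strand. IFITM3 lies at chr11:319676-320860 on the minus strand. The files were made on hg19, so these positions are not those of the files. The GENCODE transcript taken for each member had 2 exons. In the GENCODE transcripts, the coding sequences of IFITM2 and IFITM3 were 93.98% identical over 399 aligned bases, those of IFITM1 and IFITM3 87.02% over 339, and those of IFITM1 and IFITM2 84.96% over 339. The longest stretch without a difference was 141 bases between IFITM1 and IFITM3 and 99 bases in both other pairs. The starts of the coding sequences are shown because the members differ most visibly there, with capitals marking the bases of IFITM2 and IFITM1 that differ from IFITM3 in the alignment:
IFITM3: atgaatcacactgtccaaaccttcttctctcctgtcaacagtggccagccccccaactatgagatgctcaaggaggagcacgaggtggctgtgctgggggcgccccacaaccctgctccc
IFITM2: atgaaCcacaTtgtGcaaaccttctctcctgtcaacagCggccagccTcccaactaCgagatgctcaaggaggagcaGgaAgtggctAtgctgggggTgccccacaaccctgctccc
IFITM1: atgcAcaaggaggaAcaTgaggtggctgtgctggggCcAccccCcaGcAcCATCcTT

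IFITM2 differed from IFITM3 at 10 of the bases shown. IFITM1 began at base 64 of the IFITM3 coding sequence, so it has no counterpart of the first part of the other members, and it differed at 14 of its 57 bases shown. Where within each transcript the counted target lies, and how long it is, is not stated in the sources used here. Whether reads shared by near-identical members were split between them, and whether counting used strand, is not stated either, so IFITM2 reads in particular cannot be told apart with certainty from those of IFITM3. RefSeq also lists an antisense gene, IFITM3-AS1, across IFITM3, and without strand its reads could not be separated.

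The promoters are shown because IFITM1 and IFITM3 had the most alike patterns across the 8 groups. RefSeq's promoter table for GRCh38.p14 matched IFITM1 and IFITM3 of the 3 members. The windows hold 280 bases, 250 before the start and 30 from the start on, with the ISRE core in capitals:
IFITM1, chr11:313790-314069, plus strand: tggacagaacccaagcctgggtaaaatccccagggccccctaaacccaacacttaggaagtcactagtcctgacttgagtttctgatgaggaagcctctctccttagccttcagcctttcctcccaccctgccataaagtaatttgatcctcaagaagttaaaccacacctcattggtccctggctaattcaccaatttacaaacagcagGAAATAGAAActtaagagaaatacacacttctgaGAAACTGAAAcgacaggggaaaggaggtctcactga
IFITM3, chr11:320831-321110, minus strand: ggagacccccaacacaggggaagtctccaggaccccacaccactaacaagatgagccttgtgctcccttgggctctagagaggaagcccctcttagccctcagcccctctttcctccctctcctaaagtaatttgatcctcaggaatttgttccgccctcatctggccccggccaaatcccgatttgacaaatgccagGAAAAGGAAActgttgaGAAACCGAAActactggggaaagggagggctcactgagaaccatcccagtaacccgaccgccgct

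The ISRE core was searched on both strands as GAAA, any 2 bases and GAAA again, and each of these promoters held 2 matches, all on the strand shown. In IFITM1 the matches ran from base -40 to -31 (GAAATAGAAA) and from -6 to 4 (GAAACTGAAA), counting the first transcribed base as 1 with no base 0. In IFITM3 they ran from -52 to -43 (GAAAAGGAAA) and from -35 to -26 (GAAACCGAAA). Of 35116 promoters in the table searched in the same window, 3.39% held a match and 0.248% held 2 or more. The core of GAS, the gamma-activated sequence, was searched as TTCNNNGAA, which reads the same on both strands. It occurred once in IFITM1, from -12 to -4 (TTCTGAGAA), overlapping the second ISRE core there, and 7.3% of all promoters held one. The windows of IFITM1 and IFITM3 were 72.51% identical over 251 aligned bases. These matches describe letters in the windows and show no binding.

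Levels are given as CPM, the read count scaled to a library of 1000000 reads after TMM (trimmed mean of M-values) correction of library size. Changes are log2 fold changes ± SE by the quasi-likelihood test of edgeR, with p-values adjusted by Benjamini-Hochberg over the 12704 genes. A gene is said to be called where that adjusted p was below 0.05. Every ligand raised all 3 members in both genotypes, but with H11 or IFNL3 optimized cells reached 70.2% to 106.6% of their level with IFNw, while wild-type cells reached 5.82% to 10.5% of theirs.

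**Figure D1:**
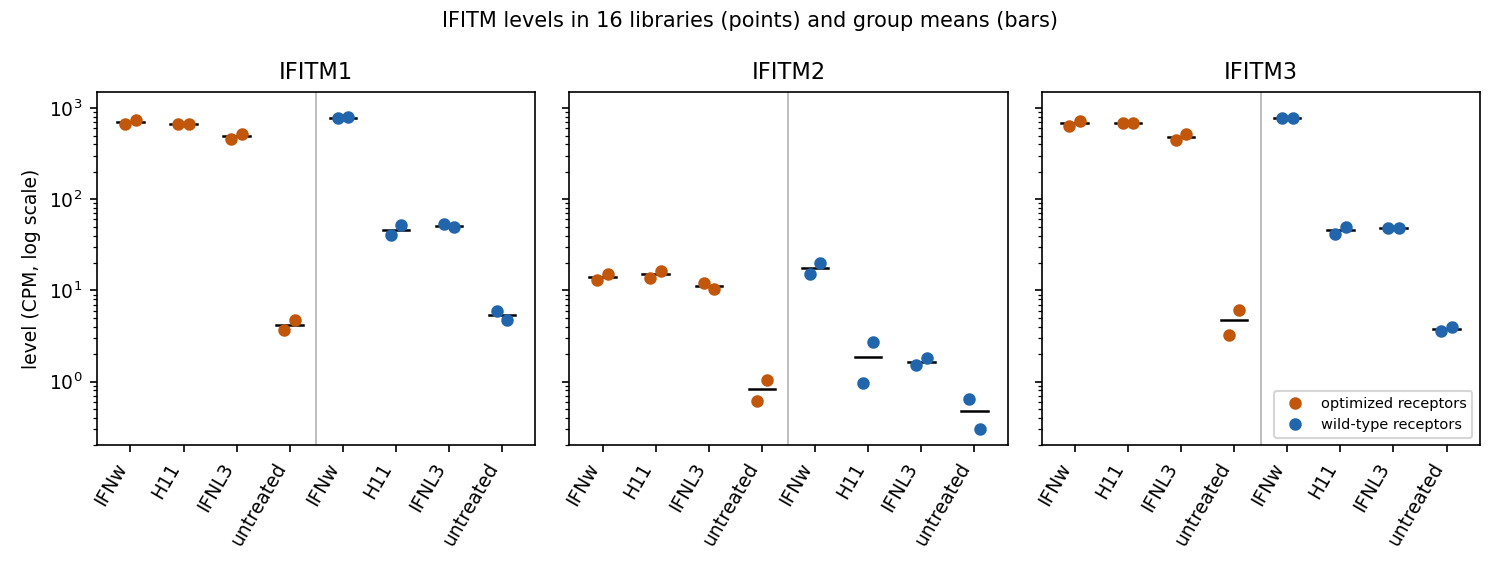
Level of each member in CPM (log scale) in the 16 libraries, with optimized receptors left of wild-type receptors in each panel; points are libraries and bars are means of 2. For IFITM1, optimized libraries with any ligand lie between 463 and 732 CPM, while wild-type libraries with H11 or IFNL3 lie between 40.9 and 52.9 CPM.

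IFITM1 was raised by all 3 ligands in optimized cells to levels of the same order. Its 2 libraries of optimized cells held 661 and 732 CPM with IFNw, 675 and 667 CPM with H11 and 463 and 515 CPM with IFNL3, against 3.67 and 4.73 CPM untreated. Wild-type cells held 787 and 789 CPM of it with IFNw, 40.9 and 52.0 CPM with H11 and 52.9 and 49.1 CPM with IFNL3, against 5.97 and 4.69 CPM untreated. No ligand library overlapped the untreated libraries of its genotype, and wild-type cells with H11 or IFNL3 formed a middle level between untreated cells and cells with IFNw. Overlap was looked at for the members only, here and below, so its share over all genes is not known. In optimized cells IFITM1 rose by 7.41 ± 0.19 with IFNw, 7.35 ± 0.19 with H11 and 6.90 ± 0.19 with IFNL3. Wild-type cells showed rises of 7.21 ± 0.18 with IFNw, 3.13 ± 0.17 with H11 and 3.26 ± 0.17 with IFNL3, the largest adjusted p of these 6 tests being 4.57e-10 by edgeR.

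IFITM3, which restricts viruses entering through late endosomes, followed IFITM1 closely. In optimized cells it held 641 and 718 CPM with IFNw, 688 and 681 CPM with H11 and 450.3 and 514 CPM with IFNL3, against 3.26 and 6.13 CPM untreated. Wild-type cells held 788 and 782 CPM of it with IFNw, 41.2 and 50.2 CPM with H11 and 48.1 and 48.3 CPM with IFNL3, against 3.58 and 3.99 CPM untreated. Wild-type cells with H11 or IFNL3 again formed a middle level, with no overlap between a ligand and untreated cells of the same genotype. The rise in optimized cells was 7.26 ± 0.21 with IFNw, 7.27 ± 0.21 with H11 and 6.76 ± 0.21 with IFNL3. The rise in wild-type cells was 7.69 ± 0.21 with IFNw, 3.59 ± 0.20 with H11 and 3.66 ± 0.20 with IFNL3, with a largest adjusted p of 6.11e-10 over the 6 tests by edgeR.

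IFITM2, the closest relative of IFITM3, had far fewer reads on its target and a smaller fitted rise in each comparison with untreated cells. In optimized cells it had 96 and 123 reads with IFNw, 108 and 114 with H11 and 117 and 92 with IFNL3, against 6 and 6 untreated. Wild-type cells had 109 and 151 reads with IFNw, 11 and 33 with H11 and 17 and 20 with IFNL3, against 6 and 3 untreated. As levels, these were 10.3 to 16.2 CPM in the 6 ligand-treated libraries of optimized cells and 15.2 and 19.8 CPM in wild-type cells with IFNw. Wild-type libraries with H11 and IFNL3 lay between 0.957 and 2.73 CPM, and the 4 untreated libraries between 0.299 and 1.05 CPM.

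Each ligand group of IFITM2 lay above the untreated libraries of its genotype, although in wild-type cells with H11 the lower library, at 0.957 CPM, was near the higher untreated one, at 0.651 CPM. IFITM2 rose by 4.15 ± 0.43 with IFNw, 4.24 ± 0.43 with H11 and 3.81 ± 0.43 with IFNL3 in optimized cells. In wild-type cells it rose by 5.18 ± 0.44 with IFNw (adjusted p = 1.12e-07 by edgeR). Its rise there was 1.96 ± 0.56 with H11 (adjusted p = 0.00948 by edgeR) and 1.79 ± 0.57 with IFNL3 (adjusted p = 0.0179 by edgeR). These 2 calls rested on few libraries. Without replicate 2 of wild-type cells with H11 the rise with H11 was 1.01 and not called, and leaving out replicate 2 of the untreated wild-type cells, the rises with H11 and IFNL3 were 1.49 and 1.33 and not called. Without replicate 2 of wild-type cells with IFNL3 the rise with IFNL3 was 1.67 and not called, and leaving out replicate 1 of the untreated wild-type cells, the rises with IFNw, H11 and IFNL3 were 5.81, 2.58 and 2.42, all called. From the summed reads alone, the fold of IFITM2 in optimized cells was 13.9 with IFNw (95% interval 7.81 to 27.4), 14.9 with H11 (8.39 to 29.4) and 13.8 with IFNL3 (7.72 to 27.1). In wild-type cells it was 29.6 (15.3 to 65.4), 4.80 (2.31 to 11.2) and 4.30 (2.04 to 10.1) with the same ligands. These exact binomial intervals cover counting error only, since reads of amplified libraries are not independent molecules.

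All 3 members were thus called higher with each ligand in each genotype. Among all genes tested, the share called higher was 17.5% with IFNw, 17.2% with H11 and 7.26% with IFNL3 in optimized cells, and 16.6%, 18.2% and 18.7% with the same ligands in wild-type cells. The shares called lower were 15.9%, 15.2% and 6.05% in optimized cells and 14.8%, 20.6% and 21.1% in wild-type cells. The median over all genes tested lay within 0.054 of 0 in each of these comparisons.

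**Figure D2:**
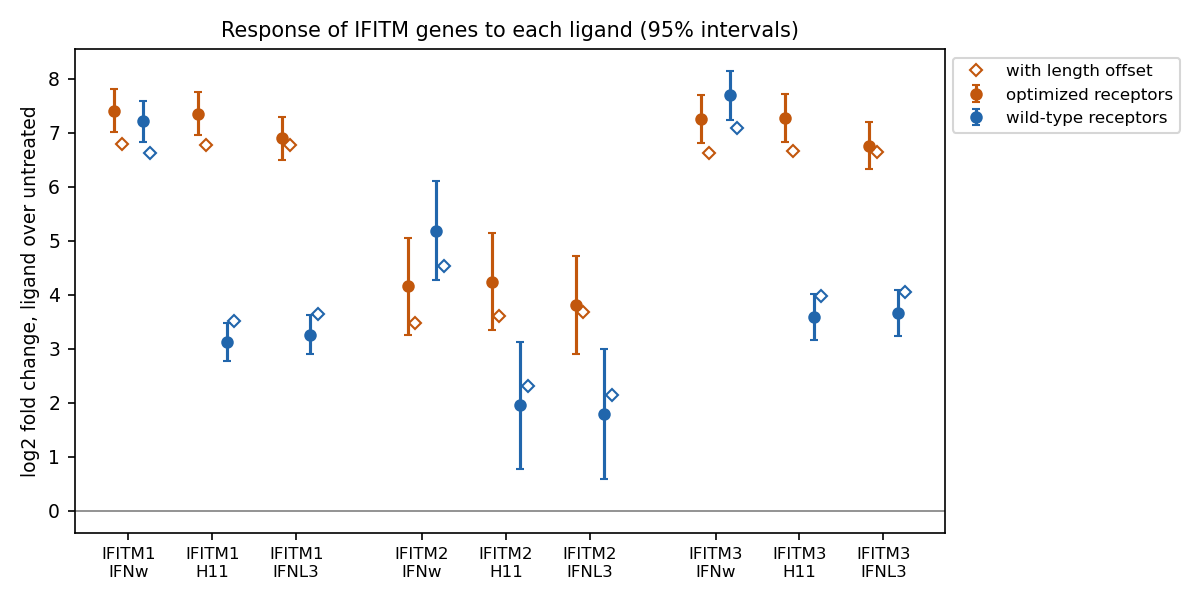
Log2 fold change of each member, ligand over untreated, in optimized and wild-type cells with 95% intervals (filled points), and the same value after the transcript length offset (open diamonds). Filled points for H11 and IFNL3 lie between 3.81 and 7.35 in optimized cells and between 1.79 and 3.66 in wild-type cells.

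Comparing genotypes under the same treatment, the members differed with H11 and IFNL3. With H11, IFITM1 averaged 671 ± 5.78 CPM in optimized cells and 46.5 ± 7.90 CPM in wild-type cells (SD, n = 2 each), a log2 difference of 3.85 ± 0.15. IFITM3 averaged 685 ± 4.69 CPM in optimized cells and 45.7 ± 6.36 CPM in wild-type cells with H11, a difference of 3.90 ± 0.17. IFITM2 averaged 15.0 ± 1.66 CPM in optimized cells and 1.84 ± 1.25 CPM in wild-type cells with H11, a difference of 3.01 ± 0.34, and of 3.95 without replicate 2 of wild-type cells with H11. All 3 were called, with a largest adjusted p of 1.24e-06 by edgeR, where 25.6% of all genes tested were called higher and 26.1% lower in optimized cells.

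With IFNL3 the differences were somewhat smaller. IFITM1 averaged 489 ± 36.9 CPM in optimized cells and 51.0 ± 2.73 CPM in wild-type cells (SD, n = 2 each), a difference of 3.26 ± 0.14. For IFITM3 the means were 482 ± 45.4 CPM in optimized cells and 48.2 ± 0.12 CPM in wild-type cells, a difference of 3.32 ± 0.16. For IFITM2 they were 11.1 ± 1.17 CPM in optimized cells and 1.66 ± 0.19 CPM in wild-type cells, a difference of 2.73 ± 0.35. Again all 3 were called, with a largest adjusted p of 1.64e-05 by edgeR, against 18.1% of all genes called higher and 15.1% lower. In neither treatment did the optimized and wild-type libraries of any member overlap, though how many of all genes also had no overlap was not counted. The 12704 genes tested were also ranked by signed log2 difference, from the highest in optimized cells down. IFITM3, IFITM1 and IFITM2 ranked 24, 29 and 68 with H11 and 23, 24 and 53 with IFNL3.

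No member was called between genotypes in untreated cells or with IFNw. In untreated cells the difference was -0.37 ± 0.22 for IFITM1 (95% interval -0.83 to 0.09), 0.72 ± 0.71 for IFITM2 (-0.78 to 2.22) and 0.22 ± 0.26 for IFITM3 (-0.32 to 0.76), and the libraries of all 3 overlapped. With IFNw it was -0.18 ± 0.13 for IFITM1 (-0.45 to 0.10), -0.31 ± 0.28 for IFITM2 (-0.91 to 0.28) and -0.21 ± 0.15 for IFITM3 (-0.52 to 0.10), with both optimized libraries below both wild-type ones for IFITM1 and IFITM3. In these comparisons edgeR called 0% of all genes, with 705 genes in untreated cells and 439 with IFNw at an unadjusted p under 0.05, and DESeq2 called 0 in both.

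The difference between the genotypes' responses, each measured against its own untreated cells, was tested in the same fit. The response to H11 was larger in optimized cells by 4.23 ± 0.26 for IFITM1 (adjusted p = 7.28e-09 by edgeR) and by 3.68 ± 0.30 for IFITM3 (adjusted p = 1.11e-07 by edgeR). For IFITM2 the difference was 2.29 ± 0.83 (adjusted p = 0.0389 by edgeR), and this call was lost in a fit of the 4 groups alone (2.28, adjusted p = 0.0804 by edgeR) and without any one of 4 libraries. Those were replicate 2 of optimized cells with H11 (2.19), replicate 1 of untreated optimized cells (1.86), replicate 1 of wild-type cells with H11 (1.73) and replicate 1 of untreated wild-type cells (1.66), while without replicate 2 of wild-type cells with H11 the difference was 3.23 and called. Of all genes tested, 19.5% had a response to H11 called higher in optimized cells. The response to IFNL3 was larger in optimized cells by 3.64 ± 0.26 for IFITM1 (adjusted p = 1.98e-07 by edgeR) and by 3.10 ± 0.30 for IFITM3 (adjusted p = 4.22e-06 by edgeR), where 11.1% of all genes were called higher. For IFITM2 it was 2.01 ± 0.83 and not called (adjusted p = 0.102 by edgeR, 95% interval 0.27 to 3.76). The response to IFNw differed by 0.20 ± 0.25 for IFITM1, -1.03 ± 0.77 for IFITM2 and -0.43 ± 0.30 for IFITM3, none of them called. For that difference edgeR called 0% of all genes, with 633 genes at an unadjusted p under 0.05, and DESeq2 called 0.

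**Figure D3:**
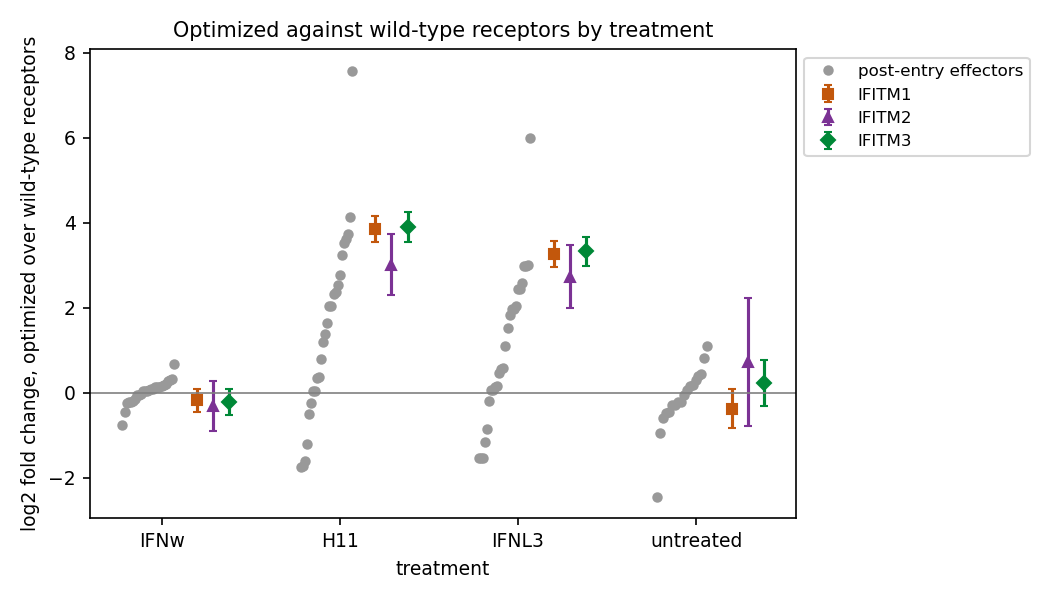
Log2 fold change, optimized over wild-type receptors, of the members (coloured, with 95% intervals) and of the post-entry effectors that had a fold (grey; 26 genes with a ligand, 18 in untreated cells) under each treatment. The members lie between 2.73 and 3.90 with H11 and IFNL3, and their intervals include 0 with IFNw and in untreated cells.

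Ligands were compared at the same labelled dose within each genotype, in 3 pairs per genotype. In wild-type cells H11 and IFNL3 gave levels that could not be distinguished for any member. The difference, H11 over IFNL3, was -0.13 for IFITM1 (95% interval -0.42 to 0.16), 0.16 for IFITM2 (-0.72 to 1.05) and -0.08 for IFITM3 (-0.40 to 0.25), and the libraries overlapped for all 3. Without replicate 2 of wild-type cells with H11, the IFITM2 value turned to -0.78, also not called. EdgeR called 0% of all genes there, while 158 genes had an unadjusted p under 0.05, and no gene (0) was called by DESeq2. Both ligands stayed far below IFNw in wild-type cells. H11 gave 5.90% of the mean level with IFNw for IFITM1, 10.5% for IFITM2 and 5.82% for IFITM3, and IFNL3 gave 6.48%, 9.47% and 6.14% for the same members. H11 was lower than IFNw by log2 differences of -4.08 ± 0.15, -3.23 ± 0.34 and -4.10 ± 0.17 for IFITM1, IFITM2 and IFITM3, all called (-4.17 for IFITM2 without replicate 2 of wild-type cells with H11), where 25.7% of all genes were called lower. IFNw was higher than IFNL3 by 3.95 ± 0.15, 3.39 ± 0.35 and 4.03 ± 0.17 for the same members, all called, against 25.9% of all genes.

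In optimized cells the ligands lay close together. H11 gave 96.3% of the IFNw level for IFITM1, 106.6% for IFITM2 and 100.8% for IFITM3, and no member was called between these ligands. The differences, H11 over IFNw, were -0.05 (95% interval -0.33 to 0.22), 0.09 (-0.51 to 0.69) and 0.01 (-0.30 to 0.32) for IFITM1, IFITM2 and IFITM3, with overlapping libraries. In that comparison 0% of all genes were called by edgeR, 279 genes had an unadjusted p under 0.05, and DESeq2 gave 0 calls. IFNL3 gave 70.2%, 78.7% and 71.0% of the IFNw level for IFITM1, IFITM2 and IFITM3. H11 was higher than IFNL3 by 0.46 ± 0.13 for IFITM1 (adjusted p = 0.0222 by edgeR) and 0.51 ± 0.15 for IFITM3 (adjusted p = 0.024 by edgeR), where 10.7% of all genes were called higher. IFNw was higher than IFNL3 by 0.51 ± 0.13 for IFITM1 (adjusted p = 0.0113 by edgeR) and 0.49 ± 0.15 for IFITM3 (adjusted p = 0.0252 by edgeR), where 11.5% of all genes were. For IFITM2 these differences were 0.44 ± 0.29 and 0.35 ± 0.29 and not called. The 4 calls for IFITM1 and IFITM3 did not survive the transcript length offset described next. The call of H11 over IFNL3 was also lost for both genes without any one of the 4 libraries compared. On raw library totals, without TMM, the means for IFITM1 in optimized cells were 562 (IFNw), 548.5 (H11) and 496 (IFNL3) reads for every 1000000. Wild-type libraries held 645 and 659 (IFNw), 51.4 and 66.2 (H11) and 67.6 and 62.6 (IFNL3) on that scale. The percentages of the IFNw level given for IFITM1 thus depend on the scaling, and are higher without TMM in both genotypes.

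Libraries of some groups differed in how counts depended on transcript length, and the members have short transcripts. Their GENCODE transcripts hold 855 bases for IFITM1, 659 for IFITM2 and 808 for IFITM3, against a median of 3279 over the genes tested. Across genes, Spearman's rho of transcript length with a gene's deviation from its mean over all libraries, was -0.57 to -0.54 in the 6 libraries with H11 in optimized cells or with IFNw in either genotype. It was 0.03 to 0.08 in the 2 libraries of optimized cells with IFNL3, 0.51 to 0.55 in the 4 wild-type libraries with H11 or IFNL3 and 0.09 to 0.19 in the 4 untreated libraries. The libraries in which IFITM levels were highest were therefore also those in which short transcripts took more of the reads.

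Fitting an offset for this trend in each library reduced the gap between genotypes and did not end it. With the offset, optimized over wild-type cells with H11 gave 2.88 ± 0.14 for IFITM1, 2.01 ± 0.34 for IFITM2 and 2.92 ± 0.16 for IFITM3, and with IFNL3 2.75 ± 0.14, 2.26 ± 0.35 and 2.82 ± 0.16, all called. The difference in response to H11 became 3.25 for IFITM1 and 2.70 for IFITM3, both called, and 1.29 for IFITM2, which was not called (adjusted p = 0.253 by edgeR). For IFNL3 it became 3.13 for IFITM1 and 2.59 for IFITM3, both called. The rises with IFNw became 6.79, 3.48 and 6.63 for IFITM1, IFITM2 and IFITM3 in optimized cells and 6.61, 4.53 and 7.08 in wild-type cells, and those with H11 in optimized cells 6.76, 3.60 and 6.67. IFNw over IFNL3 in wild-type cells became 2.96, 2.38 and 3.03, and H11 over IFNw there -3.11, -2.22 and -3.11. In optimized cells H11 over IFNL3 became -0.01 for IFITM1 and 0.03 for IFITM3, and IFNw over IFNL3 0.01 for IFITM1 and -0.02 for IFITM3, none of them called. How much of the trend came from the libraries and how much from the cells' transcripts cannot be told apart in this design.

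IFITM2 made up a larger share of the family's reads in untreated than in ligand-treated libraries. IFITM3 had 0.909 to 1.02 reads for each IFITM1 read in the 12 ligand-treated libraries, and 0.60 to 1.30 in the 4 untreated libraries, a range that spans the other and rests on 68 to 94 reads of the family a library. IFITM2 made up 0.955% to 2.60% of the family's reads in the ligand-treated libraries and 3.33% to 8.82% in the untreated ones, with no overlap. Over both libraries of a group, its share was 1.02% with IFNw (exact binomial 95% interval 0.886% to 1.16%), 1.09% with H11 (0.954% to 1.24%), 1.14% with IFNL3 (0.987% to 1.30%) and 8.45% untreated (4.44% to 14.3%) in optimized cells. In wild-type cells it was 1.10% with IFNw (0.975% to 1.25%), 1.98% with H11 (1.44% to 2.65%), 1.64% with IFNL3 (1.16% to 2.26%) and 4.89% untreated (2.26% to 9.08%). Among the ligand groups, the interval with H11 in wild-type cells lay above those with IFNw there and with any ligand in optimized cells. Its 2 libraries differed, at 1.15% in replicate 1 and 2.60% in replicate 2, where wild-type libraries with IFNw were at 0.955% and 1.25%. The intervals pool the reads of both libraries and cover counting error only. The size of the share itself depends on the lengths of the targets, which are not stated in the sources used here, so it does not give the ratio of transcripts, and a few IFITM3 or IFITM1 reads placed on IFITM2 could not be recognised.

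**Figure D4:**
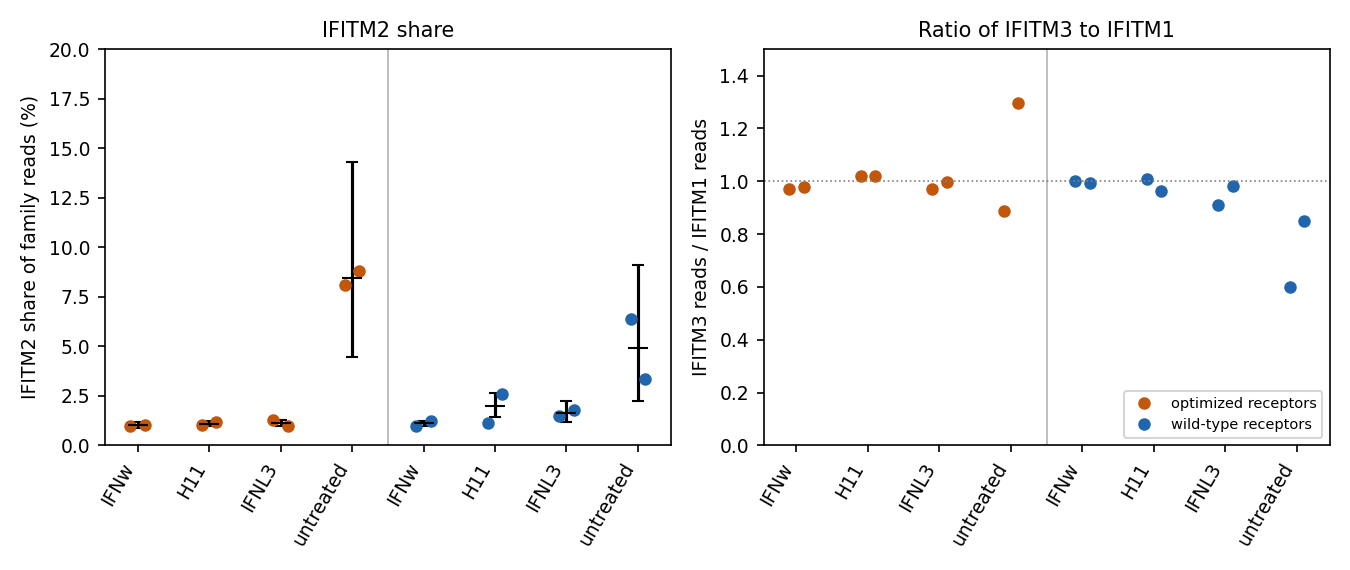
IFITM2 share of the family's reads in percent (left; points are libraries, bars are the share over both libraries with its exact binomial 95% interval) and reads of IFITM3 divided by reads of IFITM1 (right), by group with optimized receptors left of wild-type receptors. The IFITM2 share lies between 0.955% and 2.60% in ligand-treated libraries and between 3.33% and 8.82% in untreated libraries.

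Other genes of the IFITM family with a target had few reads. IFITM5, which is known from bone, had 1 read in all 16 libraries, in replicate 2 of optimized cells with IFNL3. IFITM10 had 1 to 13 reads per library, and IFITM4P, a pseudogene, 3 to 29. IFITM10 and the neuronal PRRT1 and PRRT2 were the tested members of a list of 10 other genes with the same CD225 domain. IFITM10 was called lower in wild-type cells with IFNw (-2.36 ± 0.86, adjusted p = 0.0396 by edgeR) and with IFNL3 (-1.97 ± 0.74, adjusted p = 0.0367 by edgeR). These calls rest on 1 to 13 reads a library, the 13 being in an untreated wild-type one. IFITM10 was not called with H11 in wild-type cells (-0.87 ± 0.63). Nor was it called in optimized cells with IFNw (-0.57 ± 0.71), H11 (-0.52 ± 0.71) or IFNL3 (-0.20 ± 0.66). PRRT2 was called higher in wild-type cells with H11 (1.45 ± 0.42, adjusted p = 0.011 by edgeR) and with IFNL3 (1.21 ± 0.42, adjusted p = 0.0305 by edgeR), and PRRT1 lower in optimized cells with IFNw (-1.55 ± 0.37) and with H11. No other comparison of these 3 genes with untreated cells gave a call. Among all genes, 7.26% to 18.7% were called higher and 6.05% to 21.1% lower in comparisons with untreated cells. PRRT1 and PRRT2 were lower in optimized than in wild-type cells with H11, by -1.28 and -1.42, and with IFNL3, by -1.15 and -2.47. Of all genes, 26.1% were called lower there with H11 and 15.1% with IFNL3.

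Effectors that act after a virus has entered were set beside the members. Of the 26 listed, all tested, 25 rose with IFNw, 25 with H11 and 24 with IFNL3 in optimized cells. The counts were 25, 22 and 22 in wild-type cells, and none was lower in either genotype. Among all genes, 7.26% to 18.7% were called higher and 6.05% to 21.1% lower over these comparisons. Untreated, 7 of the 26 had 0 reads in optimized cells and 5 in wild-type cells. Those genes could only rise, and they passed the filter through other libraries. The median log2 fold change of the 26 effectors was 6.72, 6.66 and 6.42 in optimized cells and 5.90, 3.99 and 4.32 in wild-type cells. With the genes that had 0 reads untreated set to 3 reads over the group, it was 5.11, 5.00 and 4.66 in optimized cells and 5.02, 3.87 and 3.77 in wild-type cells. Between genotypes with H11, 17 effectors were higher and 5 lower in optimized cells, with a median of 1.51, and with IFNL3 14 were higher and 4 lower, with a median of 0.835. All genes tested had 25.6% called higher and 26.1% lower with H11, and 18.1% and 15.1% with IFNL3. In these comparisons IFITM1 and IFITM3 had larger differences than all listed effectors except IFI27 and IFI44 with H11, and except IFI27 with IFNL3. IFI27, a small interferon-induced membrane protein, differed by 7.58 with H11, and IFI44 by 4.14 with H11. At the other end, IFIT2, which binds viral RNA, was lower in optimized cells, by -1.71 with H11 and -1.53 with IFNL3. Without the length offset, the list was therefore mixed where the 3 members moved one way. The effectors were not compared with the offset, so the part of the length trend in this contrast was not tested.

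Other restriction factors, most of them acting at entry or on the incoming virus, were called in both directions. Of 10 tested of 12 listed, 3 rose with IFNw and 3 with H11 in each genotype, 4 with IFNL3 in optimized cells and 3 with IFNL3 in wild-type cells, while 0 to 2 fell. Over these comparisons 7.26% to 18.7% of all genes were called higher and 6.05% to 21.1% lower. Between genotypes 4 factors were higher and 3 lower with H11, and 4 were higher with IFNL3. The shares of all genes called higher and lower were 25.6% and 26.1% with H11 and 18.1% and 15.1% with IFNL3. LY6E, a surface protein that blocks coronavirus fusion, had means of 284 (IFNw), 281 (H11), 203 (IFNL3) and 70.9 CPM (untreated) in optimized cells. In wild-type cells its means were 305 (IFNw), 66.4 (H11), 68.6 (IFNL3) and 64.2 CPM (untreated), and the values with H11 and IFNL3 were not called (0.05 ± 0.16 and 0.09 ± 0.16). BST2, which tethers budding virions, was higher in optimized than in wild-type cells by 1.07 ± 0.13 with H11. TRIM5, which attacks incoming capsids, rose with H11 by 1.74 ± 0.15 in optimized cells and by 2.03 ± 0.15 in wild-type cells, and was not called between the genotypes (-0.02 ± 0.14).

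IRF9, a component of the complex that binds the ISRE, was not called between genotypes with H11 and was lower in optimized cells with IFNL3. Its means were 116 (IFNw), 118 (H11), 78.1 (IFNL3) and 4.02 CPM (untreated) in optimized cells. In wild-type cells they were 117 (IFNw), 109.9 (H11), 109.8 (IFNL3) and 4.44 CPM (untreated). Optimized over wild-type cells with H11 gave 0.10 ± 0.12 for IRF9, where IFITM1 and IFITM3 differed by 3.85 and 3.90, and with IFNL3 it gave -0.49 ± 0.12 (adjusted p = 0.00519 by edgeR). STAT2, which joins IRF9 in that complex, was lower in optimized cells by -0.66 ± 0.13 with H11 and by -0.41 ± 0.13 with IFNL3, both called. Of the 10 listed genes of this path, 4 rose with each ligand in optimized cells, and 5, 4 and 5 rose with IFNw, H11 and IFNL3 in wild-type cells. With these ligands 1, 1 and 0 fell in optimized cells and 1, 1 and 1 in wild-type cells. Among all genes, 7.26% to 18.7% were called higher and 6.05% to 21.1% lower over these comparisons. Between genotypes 1 listed gene was higher and 4 were lower in optimized cells with H11, and 2 were higher and 5 lower with IFNL3. For all genes the shares higher and lower were 25.6% and 26.1% with H11 and 18.1% and 15.1% with IFNL3.

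Enzymes known to modify IFITM proteins, among them palmitoyltransferases of the ZDHHC family, were called in both directions. Of 17 listed, all tested, 2, 0 and 0 rose and 6, 6 and 2 fell with IFNw, H11 and IFNL3 in optimized cells. There 17.5%, 17.2% and 7.26% of all genes were called higher and 15.9%, 15.2% and 6.05% lower. In wild-type cells 1, 3 and 5 rose and 3, 2 and 3 fell. Among all genes 16.6%, 18.2% and 18.7% were called higher there and 14.8%, 20.6% and 21.1% lower. ZDHHC20, which palmitoylates IFITM3, averaged 80.6 CPM with H11 and 60.8 CPM untreated in optimized cells, which was not called (0.42 ± 0.16, adjusted p = 0.0524 by edgeR). It was called higher with IFNw, by 0.48 ± 0.16 in optimized cells and 0.55 ± 0.16 in wild-type cells. With H11 it was called higher in optimized than in wild-type cells, by 0.47 ± 0.16. IFNL3 in either genotype and H11 in wild-type cells gave no call against untreated cells. VCP, which helps turn over ubiquitinated IFITM3, was lower in optimized than in wild-type cells with H11 (-0.60 ± 0.15, adjusted p = 0.00248 by edgeR). Against untreated cells, H11 gave 0.06 ± 0.15 for VCP in optimized cells, not called, and a called rise of 0.88 ± 0.15 in wild-type cells. Of 10 endosome and lysosome residents, 2, 2 and 1 rose and 2, 2 and 1 fell in optimized cells with IFNw, H11 and IFNL3. In wild-type cells 1, 0 and 0 rose and 2, 1 and 1 fell, counts that can be read against the shares of all genes given above, 6.05% to 21.1% in a direction. RAB5A, which directs fusion of early endosomes, fell with IFNw by -0.73 ± 0.14 in optimized cells and by -0.61 ± 0.14 in wild-type cells. CD63, a tetraspanin of late endosomes, rose with H11 in optimized cells (0.97 ± 0.13) and was at -0.15 ± 0.13 and not called in wild-type cells.

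The promoters of these lists were searched with the same motif. Among post-entry effectors, 13 of 19 with a promoter in the table held the ISRE core, 8 of them at least 2 times, and among entry-stage factors 3 of 11 did, against 3.39% of all promoters. None of the 14 promoters of modifying enzymes, 7 of signalling genes and 7 of endosome and lysosome genes held it.

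Genes whose pattern was most like a member's were found by Pearson's r over the 8 group means of log2(CPM + 0.5), among 10562 genes with at least 5 CPM in a group. IFITM1 was followed by IFITM3 (0.9987), IFI35 (0.9972), PARP10 (0.9971), IFI6 (0.9966) and IFI44L (0.9963). IFITM3 was followed by IFITM1, LGALS3BP (0.998), IFI6 (0.9977), IFI44L (0.9964) and PARP10 (0.9959). IFITM2 was followed by NSDHL (0.9977), IFI27 (0.9932), PHF11 (0.9911), CNP (0.9897) and SPATA2L (0.9847), while IFITM3 came at rank 15 and IFITM1 at rank 18. These values describe 8 points that share libraries and the length trend, and r takes no account of the size of a change. NSDHL, an enzyme of cholesterol synthesis, averaged 101 CPM with H11 and 57.9 CPM untreated in optimized cells, a far smaller change than that of IFITM2.

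Across the series, libraries held 5331203 to 9822088 reads, and 14033 to 15250 gene targets had a read. Of the HEK293 markers, LHX1, WT1, INA and PAX2 were read in every library, PAX8 and NEFL lay between 0 CPM and 1.52 or 0.87 CPM, and NEFM had 4 reads in all. The 8 listed markers summed to 42.6 to 80.3 CPM. Markers of other cells were at or near 0, among them MS4A1, LYZ, SPI1, COL3A1, LUM, ALB and TTR with 0 reads, while COL1A1 lay between 7.94 and 20.6 CPM. The 9 blood cell markers summed to 3.05 to 6.26 CPM in wild-type libraries with H11 or IFNL3 and to 0.977 to 2.14 CPM in the others, with CD68 alone at 0.974 to 5.48 CPM, and the HEK293 markers to 68.9 to 80.3 CPM against 42.6 to 61.8 CPM. The part of these shifts in the IFITM differences was not tested. In RNA from whole cultures, fewer responding cells and less RNA per cell cannot be told apart.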

How the data were processed

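RNA of 16 HEK293 libraries was counted, 2 in each of 8 groups given by the labels' genotype and treatment. Per the labels' protocols, a Monarch kit gave the RNA and an Ion Torrent kit was used for sequencing. The deposited files hold the authors' raw read counts per target, per the file headers, on hg19 according to the submitters' processing notes. Neither aligner nor counter was named in the sources used here. Of 20812 targets, the 10 for spike-ins (1 read at most) were left out. Of 28 symbols turned into dates, 27 were renamed from their Entrez identifier.

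The test was edgeR's quasi-likelihood test (edgeR 4.0.16, R 4.3.3) on these counts, after filterByExpr by group and TMM, with 1 coefficient per group over all 16 libraries and a common dispersion of 0.0176. The 19 comparisons used a Benjamini-Hochberg adjusted p of 0.05 over 12704 genes. Replicates differed by more than sampling noise in each group (chi-square per degree of freedom 6.58 to 26.1). Same-numbered replicates deviated together in 28 of 28 pairs of groups (r 0.14 to 0.368, limit 0.1), so the rule used here took the numbers as pairing them. The main fit has no replicate term, and the fit with a replicate block was run beside it. The labels state no shared culture or day. The fit was tested on simulated data.

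Alternatives were DESeq2 1.42.0, its size factors in edgeR, no filter on low counts, the replicate block, the compared groups alone, each library left out, the wild-type H11 and IFNL3 libraries left out, raw library totals for levels, and a length offset (a natural spline with 5 degrees of freedom on log transcript length, for 11490 genes with a length). Members, gene lists, the length offset and the rule for named genes (list members by level, 5 most alike genes per member) were chosen with earlier results of these data known.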

Additional observations from a re-analysis of the deposited data

Results flagged for a closer look

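The response to a ligand differed between genotypes, by the test of that difference in edgeR, for 5 values. For H11 the response of optimized cells exceeded that of wild-type cells on the log2 scale by 4.23 for IFITM1, by 2.29 for IFITM2 and by 3.68 for IFITM3. For IFNL3 it did so by 3.64 for IFITM1 and by 3.10 for IFITM3. In each of these, both libraries of optimized cells with the ligand lay above both libraries of wild-type cells with it. How many of all genes did so was not counted. The untreated optimized cells, a baseline of all 5 values, were the least alike pair of replicates. Without replicate 1 of that group the values were 4.02, 1.86 (not called) and 3.21 for H11 and 3.43 and 2.63 for IFNL3, and without replicate 2 they were 4.38, 2.63 and 4.12 for H11 and 3.79 and 3.54 for IFNL3. Groups of 2 are too small for a test of a single outlying value of a gene.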

How the results depend on the processing

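Among refits of the members' comparisons other than those leaving out 1 library, 365 kept the call or its absence, 4 lost the call and 2 reversed. The 365 kept their direction where called, while values not called could change sign and still count among them. DESeq2, its size factors, no low-count filter and leaving out the wild-type H11 and IFNL3 libraries changed no member's call. The replicate block changed none either: the difference in response to H11 was 2.28 for IFITM2 with it (adjusted p = 0.0279 by edgeR). In a fit of the compared groups alone, IFITM2's difference in response to H11 was 2.28 and not called, and IFITM2 between genotypes in untreated cells could not be fitted, since the filter removed it. With the length offset this response difference was 1.29 and not called, and in optimized cells H11 over IFNL3 was -0.0108 for IFITM1 (reversed) and 0.0259 for IFITM3, and IFNw over IFNL3 0.0134 for IFITM1 and -0.0167 for IFITM3 (reversed), none called. The cause was not tested.

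Leaving out 1 library kept the call or its absence in 243 values and lost the call in 21. Those 21 fell in 7 comparisons, with ranges of 1.01 to 2.58 (IFITM2, H11, wild-type), 1.33 to 2.42 (IFITM2, IFNL3, wild-type), 1.66 to 3.23 (IFITM2, response to H11), 0.40 to 0.53 and 0.44 to 0.60 (IFITM1 and IFITM3, H11 over IFNL3, optimized), and 0.46 to 0.62 and 0.43 to 0.61 (IFITM1 and IFITM3, IFNw over IFNL3, optimized). IFNw over IFNL3 lost its call without replicate 1 of optimized cells with IFNL3 or replicate 2 with IFNw for both genes, and for IFITM3 also without replicate 2 with IFNL3. Without replicate 2 of wild-type cells with H11, IFITM2 differed between genotypes with H11 by 3.95 and over IFNw by -4.17.

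Counts of genes called moved by over 1.5 times in the fit of groups alone for optimized cells with IFNw (2052 against 4247), H11 (2021 against 4116) and IFNL3 (225 against 1690) and for the response to IFNL3 (1538 against 2338). The length offset gave 1110 against 2232 for H11 over IFNL3 and 1220 against 2422 for IFNw over IFNL3 in optimized cells, and no filter gave 50, 15 and 1 against 0 for genotypes untreated, the response to IFNw and H11 over IFNL3 in wild-type cells. Without 1 library, counts ranged from 680 to 3127 for IFNL3 in optimized cells, from 0 to 1280 for genotypes untreated, from 0 to 761 for the response to IFNw, from 1508 to 3388 for that to IFNL3, and from 1046 to 1213 and 1243 to 1510 for H11 and IFNw over IFNL3 in optimized cells. The highest of the first 3 came without replicate 1 of untreated optimized cells. They ranged from 2630 to 2853 against 3988 for IFNw in wild-type cells and from 2807 to 2839 against 4220 for genotypes with IFNL3. Depth limits IFITM2 most, with 12 reads over both untreated libraries of optimized cells and 9 over those of wild-type cells.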
